A study of Mus musculus with 6 samples.

Results

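The proteasome genes of the array were taken as all probes with a single gene symbol whose symbol starts with Psma, Psmb, Psmc, Psmd, Psme, Psmf or Psmg followed by a digit, a choice by name alone. It found 56 probes for 50 genes, of 19935 genes measured. Of the 50, 48 encode subunits, activators, assembly factors or regulators of the proteasome. The other members were Psmc3ip, a meiotic recombination factor that is not part of the proteasome, and Psme3ip1, a partner of the activator made by Psme3.

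RNA of peritoneal macrophages, phagocytes from the abdominal cavity, of C57BL/6 mice was measured on 6 Affymetrix arrays. The control group (2 arrays) was untreated, and the labels give it no culture time. The poly I:C group (2 arrays) received 2 ug/mL of this synthetic double-stranded RNA, a ligand of TLR3, for 24 h. The PAM group (2 arrays) received 1 ug/mL of a lipopeptide ligand of TLR2 for 24 h, named PAMCSK3 in the description of replicate 1 and PAMCSK4 in that of replicate 2. The series asks for genes that rise with TLR3 and fall with TLR2 activation. Whether arrays of one group stem from different mice or wells is not stated, and p-values thus reflect only how far these samples spread, possibly for technical reasons.

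The proteasome is the main protease of the cytosol and nucleus and degrades proteins tagged with ubiquitin. Its barrel, the 20S core, has outer rings of alpha subunits and inner rings of beta subunits, and Psmb5, Psmb6 and Psmb7 encode the catalytic ones. In cells exposed to interferon these are replaced in new particles by Psmb8, Psmb9 and Psmb10, which gives the immunoproteasome, and the PA28 activator made of Psme1 and Psme2 opens the barrel. The products of immunoproteasomes include many of the peptides shown on MHC class I. The 19S cap holds an ATPase ring (Psmc genes) that unfolds substrates and non-ATPase subunits (Psmd genes) that bind ubiquitin and remove it.

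The deposited values are logarithms, taken as base 2 although no source states the base, and every probe is centred on its own median of the 6 arrays. A value therefore says how an array stands against the others for that gene, and levels of different genes cannot be compared. Where the PAM arrays were the middle pair, their values are equal and of opposite sign by this construction. Differences between groups are not affected and are given as log2 difference ± SE (n = 2 arrays per group) with the adjusted p of limma, a linear model fitted to all genes together. A member is said to have risen or fallen only where this adjusted p was below 0.05. From the numeric precision of the file, probes that had values of at least 8 on every array before the centring can be told: 43 of the 50 members had such a probe, as did 6238 of all genes (31.3%). The 7 without it were Psma8, Psmb1, Psmb11, Psmc3ip, Psmd5, Psmg3 and Psmg4.

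All 8 measured macrophage markers, among them Csf1r and Cd68, lay at 8 or above on all arrays; 2 rose and 3 fell with poly I:C, and 3 rose and 3 fell with PAM. The same was seen for 1 of 7 T and NK cell markers, 1 of 5 B cell markers, 0 of 7 neutrophil markers, 0 of 8 dendritic and mast cell markers, and 5 of 9 mesothelial and fibroblast markers. Those 5 were Col1a1, Col1a2, Col3a1, Dcn and Pdgfra, while Msln, Upk3b, Upk1b and Krt19 were not in that class. Of the mesothelial and fibroblast list 4 fell and 0 rose with poly I:C, and 2 fell and 1 (Dcn, 0.95 ± 0.15) rose with PAM. Of the B cell list 2 rose and 1 fell with either ligand, of the neutrophil list 1 fell with poly I:C and 1 rose and 1 fell with PAM, and no T, NK, dendritic or mast cell marker passed. Of all genes 30.4% passed with poly I:C and 25.0% with PAM, and of those at 8 or above 54.6% and 45.4%. Summed levels of the lists cannot be given from centred values. The part of other cells in the differences reported here was not tested, and in such bulk samples fewer cells of a type and less RNA per cell cannot be told apart.

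Most proteasome genes were higher in both treated groups than in control. Because the labels give the control no culture time, ligand and 24 h of culture cannot be told apart in these differences. With poly I:C 35 of the 50 members rose, 1 fell and 14 did not pass, while 30.4% of all genes passed, 12.1% being higher and 18.2% lower. The members' median difference was 0.39, against 0.01 over all genes. With PAM 38 rose, 2 fell and 10 did not pass, with a median of 0.33, where 25.0% of all genes passed, 11.0% being higher and 14.0% lower. Probes with high signal pass more often, so the members at 8 or above are best set beside other genes of that class. There 33 of 43 members (76.7%) rose with poly I:C, where 54.6% of such genes passed, 21.3% being higher and 33.3% lower. With PAM 35 of 43 (81.4%) rose, where 45.4% passed, 20.4% being higher and 25.0% lower. The ligand comparisons share their control arrays, so they are given side by side and not as independent results. Most rises were small: at a minimum of 1.5-fold, 12 members were higher with poly I:C and 9 with PAM. The share of all genes above that minimum was not set beside these counts.

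**Figure D1:**
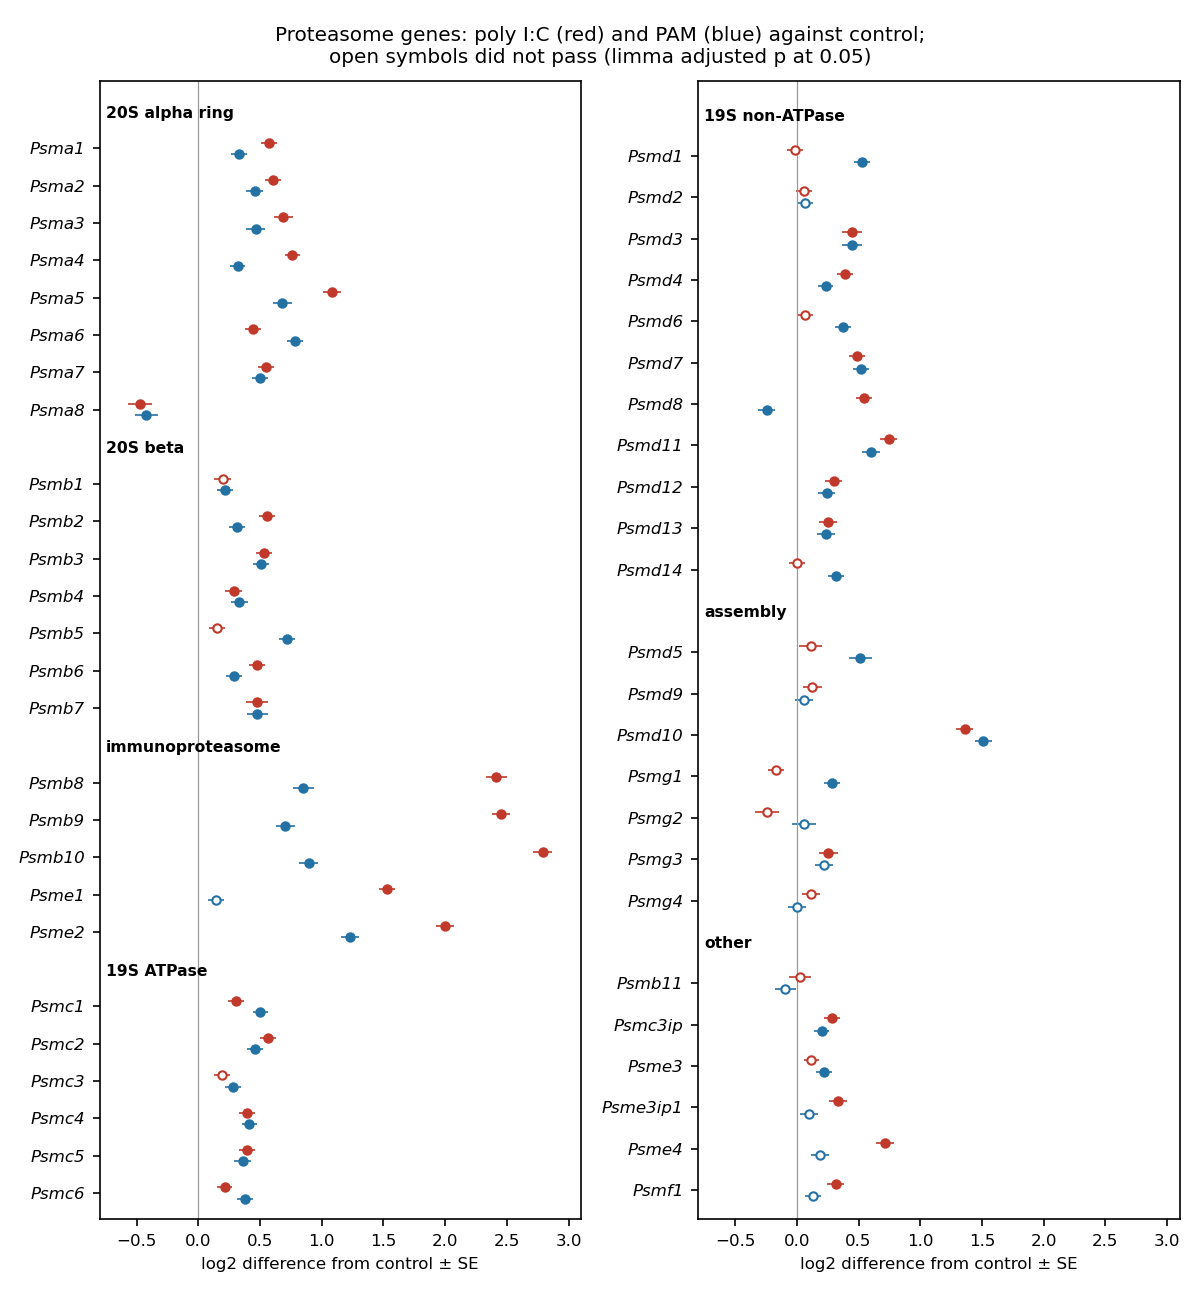
Log2 difference from control ± SE for all 50 members, grouped by role, with poly I:C in red and PAM in blue (n = 2 arrays per group; filled symbols passed limma at an adjusted p of 0.05). The immunoproteasome genes stand far right in red, from 1.53 to 2.79, while most core and cap genes lie between 0 and 1 in both colours and Psma8 lies left of 0.

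The genes of the immunoproteasome had the largest differences of all members with poly I:C. With poly I:C all 5 were higher, the median being 2.41 (range 1.53 to 2.79), and 4 of 5 rose with PAM, with a median of 0.85 (range 0.14 to 1.23). Among genes at 8 or above, where all 5 lay, 21.3% were higher with poly I:C and 20.4% with PAM. Psmb8, which takes the place of Psmb5, stood at -0.85 and -0.85 on the control arrays, at 1.59 and 1.54 with poly I:C and at 0.12 and -0.12 with PAM. The 3 groups did not overlap, with PAM between the others. The rise was 2.41 ± 0.09 with poly I:C, which is 5.33-fold (adjusted p = 6.69e-08, limma), and 0.85 ± 0.09 with PAM (1.8-fold, adjusted p = 7.83e-05).

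Psmb9, which replaces Psmb6, stood at -0.67 and -0.74 in control cells, 1.76 and 1.74 with poly I:C and 0.09 and -0.09 with PAM. It rose by 2.45 ± 0.08 (5.47-fold) and 0.70 ± 0.08 (1.63-fold), again with PAM in the middle and no overlap. Psmb10, which replaces Psmb7, had the largest rise of all members with poly I:C: -0.95 and -0.84 in control cells against 1.89 and 1.90, or 2.79 ± 0.07 (6.91-fold, adjusted p = 1.27e-08, limma). With PAM its arrays were at 0.07 and -0.07, a rise of 0.89 ± 0.07. The 3 proteases thus moved alike in order of groups, with PAM between control and poly I:C.

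The genes of PA28 differed under PAM. Psme1 stood at -0.12 and -0.16 in control cells, 1.40 and 1.39 with poly I:C and 0.03 and -0.03 with PAM. Its rise was 1.53 ± 0.06 with poly I:C (2.89-fold), while the difference with PAM, 0.14 ± 0.06, did not pass (adjusted p = 0.164, limma). Psme2 was at -1.26 and -1.20 in control cells, 0.70 and 0.84 with poly I:C and 0.03 and -0.03 with PAM. It rose under both, by 2.00 ± 0.07 and 1.23 ± 0.07, the second of which is 2.35-fold (adjusted p = 2.49e-06). The mean of Psme1 minus Psme2 shifted from control by -0.47 with poly I:C and -1.09 with PAM, without a test. Psme2b is a near copy of Psme2, so the signal of the Psme2 probe cannot be assigned to Psme2 alone.

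**Figure D2:**
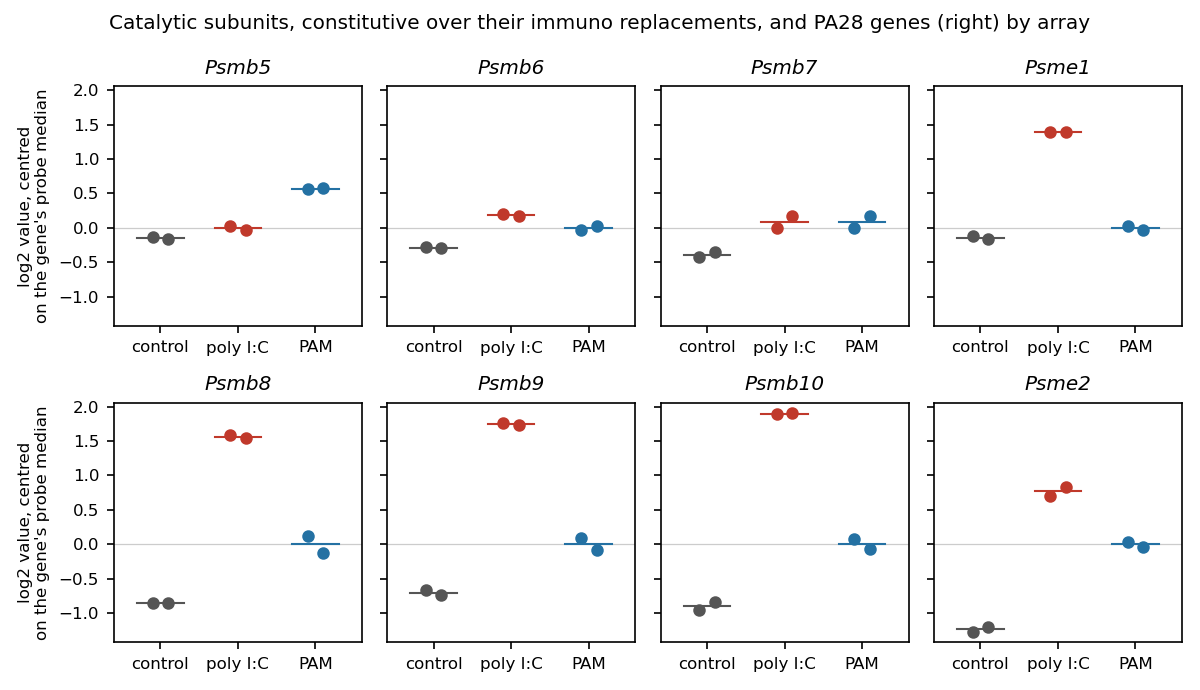
Centred log2 values of each array (points) and group means (lines) for the constitutive catalytic genes Psmb5, Psmb6 and Psmb7 above their replacements Psmb8, Psmb9 and Psmb10, and for the PA28 genes Psme1 and Psme2 on the right (n = 2 arrays per group). The poly I:C arrays of Psmb8, Psmb9 and Psmb10 lie between 1.54 and 1.90, whereas Psmb5 is highest on the PAM arrays, at 0.57 and 0.57.

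With poly I:C the constitutive catalytic genes had smaller differences than their replacements, from 0.15 to 0.48. Psmb5, the chymotrypsin-like protease, stood at -0.13 and -0.16 in control cells, 0.03 and -0.03 with poly I:C and 0.57 and 0.57 with PAM. It rose with PAM by 0.72 ± 0.06 (1.65-fold, adjusted p = 3.32e-05, limma), and its difference with poly I:C, 0.15 ± 0.06, did not pass. Psmb6, the caspase-like protease, was at -0.28 and -0.30, 0.20 and 0.18, and -0.03 and 0.03 in control, poly I:C and PAM cells. It rose by 0.48 ± 0.06 and 0.29 ± 0.06, the second not passing without PAM replicate 2 (adjusted p = 0.0793, limma). Psmb7, the trypsin-like protease, was at -0.43 and -0.35, -0.0026 and 0.18, and 0.0026 and 0.17 in the same order, and rose by 0.48 ± 0.09 and 0.48 ± 0.09. Its treated groups overlapped.

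Each protease and its replacement were therefore set against each other on every array. Psmb8 minus Psmb5 was -0.71 and -0.68 in control cells, 1.56 and 1.57 with poly I:C and -0.45 and -0.69 with PAM. This difference grew by 2.26 with poly I:C. With PAM it shifted by 0.13, and the PAM arrays overlapped the control arrays. Psmb9 minus Psmb6 was -0.39 and -0.44, 1.56 and 1.56, and 0.11 and -0.11 in control, poly I:C and PAM cells. Psmb10 minus Psmb7 was -0.52 and -0.49, 1.89 and 1.73, and 0.07 and -0.25. For these pairs the groups did not overlap, and the shifts from control were 1.97 and 2.31 with poly I:C and 0.42 and 0.41 with PAM. These values show unequal change of the paired genes and not which protease was more abundant.

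The whole immunoproteasome set moved apart from core and cap in the same way. The mean of its 5 genes minus the mean of 14 core genes (Psma1 to Psma7 and Psmb1 to Psmb7) was -0.38 and -0.39 in control cells, 1.33 and 1.32 with poly I:C and -0.01 and -0.15 with PAM. The shift from control was 1.71 with poly I:C and 0.31 with PAM. It was 0.24 without PAM replicate 1 and 0.37 without PAM replicate 2, a ratio of over 1.5 between them. Against the 17 cap genes the set shifted by 1.92 and 0.43. Core minus cap shifted by 0.21 and 0.12, with -0.12 and -0.14 in control cells, 0.06 and 0.10 with poly I:C and -0.0019 and -0.02 with PAM. These means describe lists chosen by role, with earlier results of these data known, and were not tested.

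**Figure D3:**
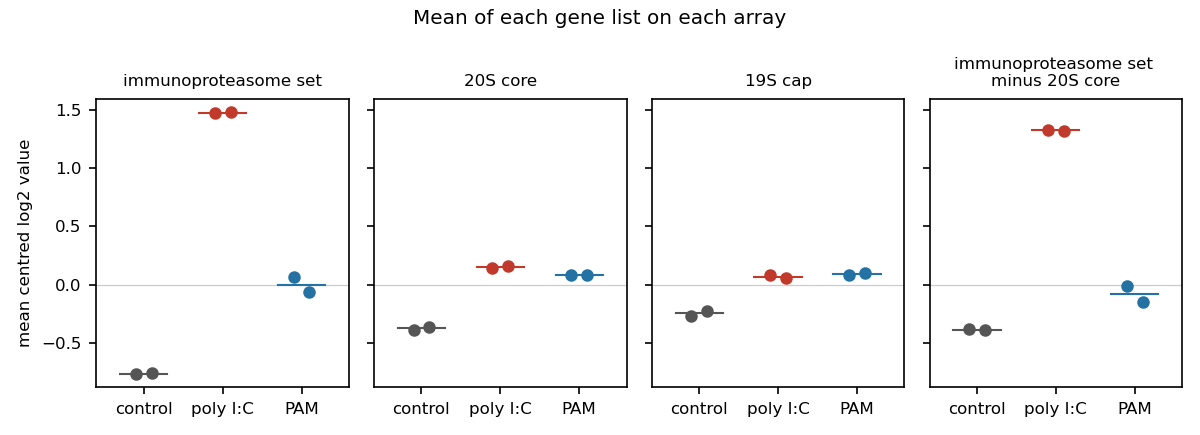
Mean centred log2 value on each array (points) with the group mean (line) for the 5 immunoproteasome genes, 14 core genes and 17 cap genes, and for the immunoproteasome set minus the core (n = 2 arrays per group). The control arrays are lowest in every panel; the immunoproteasome mean reaches 1.47 and 1.48 with poly I:C, and core and cap means of the treated groups stay between 0.06 and 0.16.

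Most genes of the barrel rose with both ligands. With poly I:C 12 of 14 core genes rose (median 0.54), beside 12.1% of all genes and 21.3% of those at 8 or above, a class that held 13 of the 14. With PAM all 14 rose (median 0.46), beside 11.0% and 20.4%. The call of Psmb1 with PAM was lost with only the 4 arrays compared, with the replicate block, and without control replicate 1 or either PAM array. Among alpha subunits, which form the gate of the barrel, Psma5 rose most with poly I:C. It stood at -0.71 and -0.66 in control cells, 0.33 and 0.48 with poly I:C and 0.04 and -0.04 with PAM, and rose by 1.08 ± 0.07 (2.12-fold) and 0.68 ± 0.07. Its 2 probes gave 1.20 and 0.97 with poly I:C. Psma6 had the reverse order, at -0.48 and -0.41 in control cells, -0.03 and 0.03 with poly I:C and 0.33 and 0.34 with PAM. It rose by 0.44 ± 0.06 and 0.78 ± 0.06, the largest core difference with PAM. Psma4 stood at -0.30 and -0.33, 0.44 and 0.45, and -0.0019 and 0.0019 in control, poly I:C and PAM cells, and rose by 0.76 ± 0.06 and 0.32 ± 0.06. Psma1, Psma2, Psma3 and Psma7 rose by 0.55 to 0.69 with poly I:C and by 0.33 to 0.50 with PAM, and the 3 probes of Psma3 gave 0.68 to 0.70 with poly I:C.

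Of the non-catalytic beta subunits, Psmb2 was at -0.31 and -0.31 in control cells, 0.28 and 0.21 with poly I:C and -0.02 and 0.02 with PAM. It rose by 0.55 ± 0.06 and 0.31 ± 0.06, the second not passing without PAM replicate 2 (adjusted p = 0.0557, limma). Psmb3 was at -0.50 and -0.46, 0.08 and 0.02, and 0.04 and 0.01 in the same order and rose by 0.53 ± 0.06 and 0.51 ± 0.06. Psmb4 was at -0.24 and -0.30, 0.07 and -0.04, and 0.09 and 0.04 and rose by 0.29 ± 0.07 and 0.33 ± 0.07; the first did not pass without poly I:C replicate 1 (adjusted p = 0.0896, limma), nor the second without PAM replicate 1 (0.0593). Psmb1 was at -0.23 and -0.15 in control cells, 0.02 and 0.0002 with poly I:C and 0.06 and -0.0002 with PAM. Its differences were 0.20 ± 0.07, which did not pass, and 0.22 ± 0.07, which passed at an adjusted p of 0.0397 (limma).

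Forms of core subunits restricted to other tissues were also measured. Psma8, the alpha subunit of the testis proteasome, fell with both ligands. It stood at 0.27 and 0.51 in control cells, -0.0001 and -0.16 with poly I:C and -0.06 and 0.0001 with PAM. The differences were -0.47 ± 0.09 and -0.42 ± 0.09, and the fall with PAM did not pass without PAM replicate 1 (adjusted p = 0.0669, limma). Psmb11, the catalytic subunit of the thymus proteasome, was at 0.16 and -0.07, 0.02 and 0.13, and -0.02 and -0.07 in control, poly I:C and PAM cells. The groups overlapped, and its differences, 0.03 ± 0.09 and -0.09 ± 0.09, did not pass. Neither gene lay at 8 or above on all arrays, and whether their probes stood over background is unknown.

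Of the 6 genes of the cap's ATPase ring 5 rose with poly I:C (range of all 0.19 to 0.56) and 6 with PAM (range 0.28 to 0.50), beside 21.3% and 20.4% higher among genes at 8 or above, where all 17 cap genes lay. Psmc2 was at -0.46 and -0.46 in control cells, 0.09 and 0.12 with poly I:C and -0.05 and 0.05 with PAM, and rose by 0.56 ± 0.07 and 0.46 ± 0.07. Psmc1 was at -0.34 and -0.27, -0.02 and 0.02, and 0.19 and 0.20 in the same order and rose by 0.31 ± 0.06 and 0.50 ± 0.06. Psmc3 was lowest in both comparisons, with arrays at -0.21 and -0.17, 0.04 and -0.04, and 0.06 and 0.11. Its difference with poly I:C, 0.19 ± 0.07, did not pass, and it rose by 0.28 ± 0.07 with PAM, a call lost without PAM replicate 1 (adjusted p = 0.0526) or PAM replicate 2 (0.0987, both limma). Psmc4, Psmc5 and Psmc6 rose by 0.21 to 0.40 with poly I:C and 0.36 to 0.41 with PAM. The call of Psmc6 with poly I:C (0.21 ± 0.06) was lost with only the 4 arrays compared and without any of the control or poly I:C arrays.

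Of the 11 non-ATPase genes 7 rose with poly I:C, where 21.3% of genes at 8 or above were higher. With PAM 9 rose and 1 fell, where 20.4% were higher and 25.0% lower. Psmd11, a clamp between cap and core, rose most with both. It stood at -0.68 and -0.53 in control cells, 0.15 and 0.14 with poly I:C and 0.02 and -0.02 with PAM, and rose by 0.74 ± 0.07 and 0.60 ± 0.07. Psmd1, the scaffold of the cap's base, was at -0.03 and 0.01 in control cells, -0.01 and -0.05 with poly I:C and 0.50 and 0.53 with PAM. Control and poly I:C arrays overlapped (-0.02 ± 0.06, not passed), and it rose by 0.53 ± 0.06 with PAM (adjusted p = 0.000252, limma). Psmd14, the enzyme that removes ubiquitin from substrates, differed by 0.0031 ± 0.06 with poly I:C, which did not pass, and by 0.32 ± 0.06 with PAM, a rise whose adjusted p was 0.0597 without PAM replicate 1 (limma). Psmd6 rose with PAM by 0.38 ± 0.06, and 0.07 ± 0.06 with poly I:C did not pass.

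Psmd8, a subunit of the lid that is the outer part of the cap, was the member that passed in opposing directions. It stood at -0.03 and 0.03 in control cells, 0.52 and 0.58 with poly I:C and -0.23 and -0.26 with PAM. The 3 groups did not overlap, with control in the middle. It rose by 0.55 ± 0.07 with poly I:C (1.46-fold, adjusted p = 0.000194, limma). With PAM it fell, with a difference of -0.24 ± 0.07 (adjusted p = 0.0234). That fall did not pass without control replicate 2 (adjusted p = 0.0903), PAM replicate 1 (0.0949) or PAM replicate 2 (0.131), all by limma. Psmd2, a scaffold that receives substrate carriers, did not pass in either comparison (0.06 ± 0.07 and 0.07 ± 0.07), and its 2 probes gave 0.04 and 0.07 with poly I:C. Psmd3, Psmd4, Psmd7, Psmd12 and Psmd13 rose by 0.25 to 0.49 with poly I:C and by 0.23 to 0.52 with PAM. Of these, Psmd4, Psmd12 and Psmd13 lost the PAM call without control replicate 1, PAM replicate 1 or PAM replicate 2. Without PAM replicate 1 their differences were 0.24, 0.25 and 0.26. Psmd4 also lost it without control replicate 2, and Psmd13 with only the 4 arrays compared. For PAM against control, leaving out a poly I:C array gives that same fit. With poly I:C the call of Psmd12 was lost without poly I:C replicate 2 (difference 0.26). That of Psmd13 was lost without control replicate 1 (0.21) or poly I:C replicate 1 (0.19).

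Assembly factors, which leave the particle once it is built, were read one by one. Of 7, 2 rose with poly I:C and 3 with PAM, beside 12.1% and 11.0% of all genes. Among genes at 8 or above, a class without Psmd5, Psmg3 and Psmg4, 21.3% and 20.4% were higher. Psmd10, known as gankyrin, holds an ATPase during assembly of the cap and rose more than any core or cap subunit. It stood at -1.37 and -1.34 in control cells, -0.07 and 0.07 with poly I:C and 0.14 and 0.16 with PAM. The control arrays lay far below the treated ones. It rose by 1.36 ± 0.07 with poly I:C (2.57-fold, adjusted p = 8.18e-07, limma) and by 1.51 ± 0.07 with PAM (2.85-fold, adjusted p = 5.18e-07), the largest rise of any member with PAM. Psmd5, another chaperone of the ATPase ring, was at -0.28 and 0.0006, -0.06 and -0.0006, and 0.39 and 0.35. It rose with PAM by 0.51 ± 0.09, while 0.11 ± 0.09 with poly I:C did not pass. Psmd9, the third of these chaperones, was at 0.01 and -0.14, 0.11 and 0.01, and -0.01 and -0.02, and neither difference passed (0.13 ± 0.07 and 0.06 ± 0.07).

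The Psmg genes encode chaperones that build the alpha ring, Psmg1 with Psmg2 and Psmg3 with Psmg4. Psmg1 was at -0.02 and 0.02 in control cells, -0.18 and -0.15 with poly I:C and 0.25 and 0.32 with PAM. The control arrays lay between the treated groups; it rose by 0.29 ± 0.07 with PAM, without the call when PAM replicate 2 was left out (adjusted p = 0.0944, limma), and -0.17 ± 0.07 with poly I:C did not pass. Its partner Psmg2 was at -0.06 and 0.19, -0.24 and -0.11, and 0.18 and 0.06, and neither difference passed (-0.24 ± 0.10 and 0.06 ± 0.10). Psmg3 was at -0.20 and -0.17, 0.16 and -0.02, and 0.02 and 0.05 and rose with poly I:C by 0.26 ± 0.08. This call was lost with only the 4 arrays compared and without either control array or poly I:C replicate 1. Psmg4 was at -0.08 and -0.02, 0.04 and 0.09, and 0.02 and -0.12, and its differences, 0.12 ± 0.07 and 0.0035 ± 0.07, did not pass.

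The other activators are nuclear. Psme4, which encodes PA200, stood at -0.24 and -0.13 in control cells, 0.50 and 0.56 with poly I:C and -0.05 and 0.05 with PAM. It rose with poly I:C by 0.72 ± 0.07 (1.64-fold), and 0.18 ± 0.07 with PAM did not pass. Psme3, the PA28 gamma subunit, was at -0.12 and -0.12, 0.03 and -0.03, and 0.08 and 0.12; 0.12 ± 0.06 with poly I:C did not pass and 0.22 ± 0.06 with PAM did. Psmf1, which encodes the regulator PI31, was at -0.18 and -0.08, 0.18 and 0.18, and 0.02 and -0.02, and rose with poly I:C by 0.31 ± 0.07, with 0.13 ± 0.07 for PAM not passing. Of the members outside the particle, Psmc3ip was at -0.21 and -0.20, 0.09 and 0.07, and -0.01 and 0.01 and rose by 0.29 ± 0.06 and 0.20 ± 0.06. Psme3ip1 was at -0.07 and -0.13, 0.22 and 0.25, and 0.07 and -0.08 and rose with poly I:C by 0.33 ± 0.07, without the call when poly I:C replicate 2 was left out (adjusted p = 0.0556, limma), with 0.10 ± 0.07 for PAM not passing. The PAM calls of Psme3 and Psmc3ip were lost whichever of the 6 arrays was left out.

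The direct comparison of the ligands, at 2 ug/mL of poly I:C and 1 ug/mL of PAM, asked which members the responses set apart. Of the 50 members 12 were higher with poly I:C, 9 were higher with PAM and 29 did not pass, where 28.7% of all genes passed, 12.9% being higher with poly I:C and 15.8% with PAM. Of the 43 members at 8 or above, 46.5% passed, against 53.0% of such genes, so members of that class passed no more often than its other genes. The median difference of these 43 members was 0.05, against -0.03 over genes of that class.

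The members higher with poly I:C were led by the immunoproteasome. Psmb10 differed by 1.90 ± 0.07 (3.72-fold, adjusted p = 1.44e-07, limma), Psmb9 by 1.75 ± 0.08, Psmb8 by 1.56 ± 0.09 and Psme1 by 1.39 ± 0.06. Psme2 differed by 0.77 ± 0.07, less than Psmd8 with 0.79 ± 0.07 (adjusted p = 1.72e-05). Psme4 (0.53 ± 0.07), Psma4 (0.44 ± 0.06) and Psma5 (0.40 ± 0.07) followed. Psmb2, Psma1 and Psme3ip1 differed by 0.23 to 0.24 and lost the call in 3, 4 and 3 of the fits that leave out an array.

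The members higher with PAM were led by Psmb5, with -0.57 ± 0.06 for poly I:C minus PAM (adjusted p = 0.000125, limma), and the scaffold gene Psmd1 with -0.55 ± 0.06 (adjusted p = 0.000168). The chaperone gene Psmg1 (-0.45 ± 0.07), Psmd5 (-0.40 ± 0.09), Psma6 (-0.34 ± 0.06), Psmd14 (-0.32 ± 0.06), Psmd6 (-0.31 ± 0.06), Psmg2 (-0.30 ± 0.10) and Psmc1 (-0.20 ± 0.06) completed them. None of the 9 reached 1.5-fold, and without PAM replicate 1 Psmd14, Psmd5, Psmg2 and Psmc1 did not pass, leaving 5. The calls of Psmg2 and Psmc1 were lost without any 1 of the poly I:C or PAM arrays, that of Psmd5 also without poly I:C replicate 1 (adjusted p = 0.0772) and that of Psmd6 without poly I:C replicate 2 (0.0505, limma). Psmb7 (-0.0019 ± 0.09), Psmd3 (0.0014 ± 0.08), Psmd2 (-0.01 ± 0.07) and Psmd13 (0.01 ± 0.07) had the smallest differences between the ligands. Psmd10 differed by -0.15 ± 0.07 without passing (adjusted p = 0.161).

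**Figure D4:**
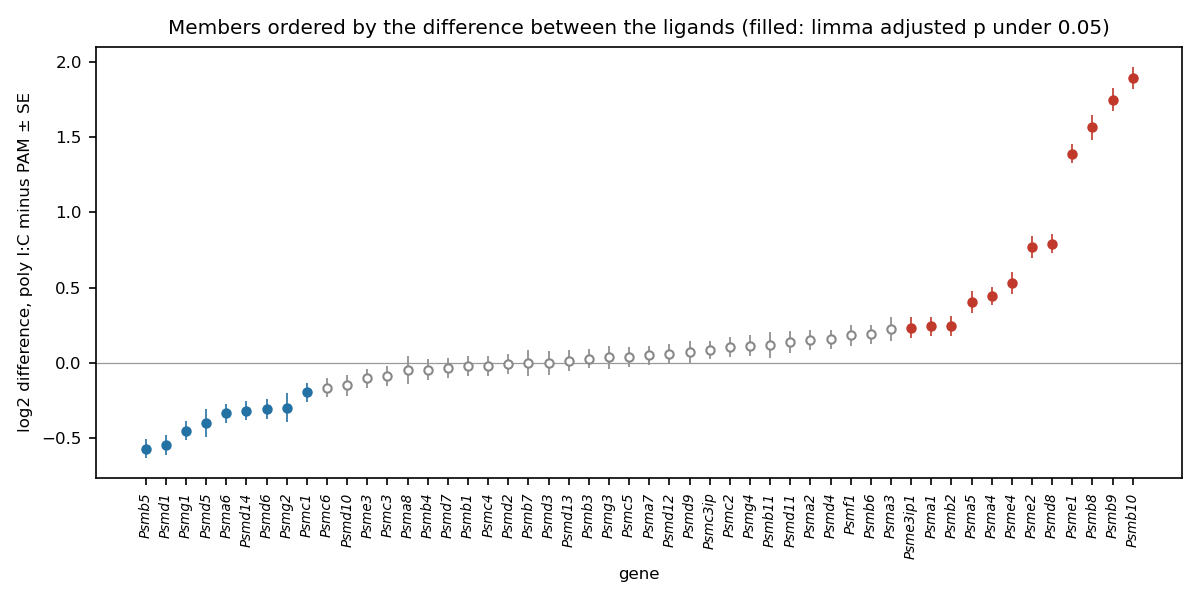
Log2 difference of poly I:C minus PAM ± SE for the 50 members in order (n = 2 arrays per group; filled symbols passed limma at an adjusted p of 0.05, red for higher with poly I:C and blue for higher with PAM). Psmb5 and Psmd1 lie lowest, at -0.57 and -0.55, and the 3 immunoproteasome proteases highest, from 1.56 to 1.90.

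Sequence before the start site was set beside these differences. RefSeq start sites of build GRCm38.p6 were found for 42 of the 50 members, and the 250 bases before each were searched on both strands. The 5 windows shown are those of Psmb9, Psmb8, Psmb5, Psmd8 and Psmd10. The window of Psmb9 overlaps that of the peptide transporter gene Tap1. Psmb8 and Psmb5 are the pair that the ligands set apart in opposing directions. Psmd8 passed in opposing directions, and Psmd10 had the largest rise with PAM. Letters run 5′ to 3′ on the strand of the gene, and capitals mark matches to the motifs named after the sequences, a CCAAT box on the other strand reading ATTGG. The windows are chr17:34187331-34187580 (minus strand) for Psmb9, chr17:34197945-34198194 (plus) for Psmb8, chr14:54617996-54618245 (minus) for Psmb5, chr7:29180674-29180923 (minus) for Psmd8 and chrX:140956712-140956961 (minus) for Psmd10.
Psmb9: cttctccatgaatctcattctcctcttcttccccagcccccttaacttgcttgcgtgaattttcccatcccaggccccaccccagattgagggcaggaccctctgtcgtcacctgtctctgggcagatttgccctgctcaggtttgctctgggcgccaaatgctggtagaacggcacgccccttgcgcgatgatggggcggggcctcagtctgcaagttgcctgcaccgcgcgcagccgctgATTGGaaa
Psmb8: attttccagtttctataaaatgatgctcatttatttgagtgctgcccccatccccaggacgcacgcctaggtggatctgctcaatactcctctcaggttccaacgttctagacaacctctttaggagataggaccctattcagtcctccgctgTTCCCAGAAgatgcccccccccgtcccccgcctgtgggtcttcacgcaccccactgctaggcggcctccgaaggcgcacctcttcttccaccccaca
Psmb5: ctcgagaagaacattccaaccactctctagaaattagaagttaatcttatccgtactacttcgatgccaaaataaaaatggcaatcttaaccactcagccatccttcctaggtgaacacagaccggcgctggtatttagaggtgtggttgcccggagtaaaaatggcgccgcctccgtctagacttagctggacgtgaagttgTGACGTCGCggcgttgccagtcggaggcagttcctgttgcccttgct
Psmd8: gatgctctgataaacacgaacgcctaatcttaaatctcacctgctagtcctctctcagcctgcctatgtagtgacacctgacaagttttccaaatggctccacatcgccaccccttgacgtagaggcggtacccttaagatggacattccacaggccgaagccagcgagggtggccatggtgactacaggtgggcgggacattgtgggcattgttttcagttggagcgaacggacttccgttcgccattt
Psmd10: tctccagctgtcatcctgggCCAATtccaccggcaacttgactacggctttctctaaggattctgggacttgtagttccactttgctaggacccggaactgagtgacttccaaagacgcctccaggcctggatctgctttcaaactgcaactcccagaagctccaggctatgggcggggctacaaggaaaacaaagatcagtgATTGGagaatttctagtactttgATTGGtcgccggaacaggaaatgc

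The window of Psmb9 has a CCAAT box, 8 to 4 bases before the start. The full windows of Psmb9 and Tap1, 300 bases each, share 275 bases on opposite strands, and the genes rose by 2.45 and 3.24 with poly I:C and by 0.70 and 1.12 with PAM. The window of Psmb8 has a match to the GAS motif of STAT factors (TTCNNNGAA) 97 to 89 bases before the start. That of Psmb5 has the core of the antioxidant response element (TGACNNNGC) at 47 to 39. The window of Psmd10 has 3 CCAAT boxes, the nearest at 24 to 20, and that of Psmd8 has no match. A match here is a description of letters and not a binding site. A missing match does not show that an element is absent, as only these letters in the 250 bases before each start were searched.

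The share of member windows with each motif was set beside that of all genes, without a test. CCAAT was in 16 of 42 windows (38.1%), against 37.5% of 27025 genes with a window. The antioxidant element core was in 5 (11.9% against 11.5%), those of Psmb5, Psmb6, Psmc6, Psmd9 and Psmd12. GAS was in 2 (4.76% against 8.13%), those of Psmb8 and Psmg1. The core of the interferon-stimulated response element (GAAANNGAAA) was in 3 (7.14% against 3.46%), those of Psmb3, Psmd4 and Psmd9, and in none of the 5 immunoproteasome windows. The kappa B consensus was in 6 (14.3% against 8.23%), those of Psma6, Psma7, Psmd11, Psmd12, Psmd13 and Psme4. In the windows shown no match overlaps another.

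Genes that work with the proteasome but carry other names were read from lists chosen by role, with earlier results of these data known. The shares that passed therefore describe these lists and are no test of them. Their counts stand beside 54.6% of genes at 8 or above passing with poly I:C (21.3% higher, 33.3% lower) and 45.4% with PAM (20.4% and 25.0%), and beside 30.4% and 25.0% of all genes. Of 7 measured parts, assembly factors and bound enzymes, all at 8 or above, 3 rose and 2 fell with poly I:C (71.4% passed), and 4 rose with PAM (57.1%). Pomp, the chaperone that completes the barrel, rose by 0.66 ± 0.07 and 0.26 ± 0.07, the second not passing without control replicate 1 (adjusted p = 0.102), PAM replicate 1 (0.0772) or PAM replicate 2 (0.155, all limma). Ecpas, which encodes an adaptor of the particle, rose by 0.32 ± 0.06 and 0.50 ± 0.06, and Txnl1, a thioredoxin-like cap partner, rose with PAM (0.56 ± 0.07). Of 7 carriers of ubiquitinated proteins, of which 3 lay at 8 or above, 2 rose and 2 fell with poly I:C and 4 rose with PAM. In either comparison 57.1% passed, beside 54.6% and 45.4% of genes at 8 or above and 30.4% and 25.0% of all genes. Vcp, the ATPase that pulls proteins out of complexes, passed in opposing directions, with -0.31 ± 0.06 and 0.33 ± 0.06. Ubqln2 fell with poly I:C (-0.63 ± 0.12, adjusted p = 0.0506 without poly I:C replicate 2, limma) and Nploc4, a cofactor of Vcp, rose with both (0.36 and 0.51).

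Among 5 regulators, all at 8 or above, 3 rose and 1 fell with poly I:C (80% passed), and 3 rose with PAM (60%), beside 54.6% and 45.4% of that class. Nfe2l1, the factor that raises proteasome genes when the proteasome is impaired, rose by 0.81 ± 0.06 with poly I:C and 0.95 ± 0.06 with PAM, and did not pass between the ligands (-0.14 ± 0.06). Nlrc5, the activator of MHC class I genes, rose by 2.52 ± 0.07 and 0.68 ± 0.07, and Irf1, a factor of the interferon response, by 1.57 ± 0.07 and 0.73 ± 0.07; poly I:C exceeded PAM for both (1.84 and 0.85). The gene that fell, named after its value was seen, was Nfe2l2 (-0.23 ± 0.07). Its call was lost with only the 4 arrays compared and without control replicate 2 or either poly I:C array.

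Downstream of the proteasome, 2 of 8 trimming peptidases rose and 3 fell with poly I:C (62.5% passed), near the 54.6% of genes at 8 or above. With PAM 1 rose (12.5%), beside 45.4% of that class, which held 7 of the 8. Erap1, the trimming enzyme of the endoplasmic reticulum, rose by 1.18 ± 0.07 and 0.27 ± 0.07, the second not passing without PAM replicate 1 (adjusted p = 0.119) or PAM replicate 2 (0.0543, both limma). The aminopeptidase gene Lap3 rose by 1.14 ± 0.07 with poly I:C. With PAM Lap3 differed by 0.14 ± 0.07 without passing, and the ligands differed by 1.00 ± 0.07 (adjusted p = 6.47e-06, limma). The peptidase gene Blmh fell with poly I:C (-0.69 ± 0.08). Of 8 genes of peptide transport and loading 5 rose and 3 fell with poly I:C, and 6 rose with PAM (100% and 75% passed, beside 54.6% and 45.4% of genes at 8 or above, where 6 of the 8 lay). Those with the largest differences were Tap1 with 3.24 ± 0.07 and 1.12 ± 0.07, Tapbpl with 3.01 ± 0.06 and 0.93 ± 0.06 and Tap2 with 2.32 ± 0.06 and 0.55 ± 0.06. Of 3 measured genes of ubiquitin-like modification, 1 of them at 8 or above, 2 rose and 1 fell with poly I:C and 1 rose with PAM, beside 30.4% and 25.0% of all genes passing. Uba7, which activates ISG15, rose with both (2.21 and 0.54), Ubd, which encodes the modifier FAT10, rose with poly I:C (1.22 ± 0.13), and Uba6 fell with it (-0.65 ± 0.08).

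**Figure D5:**
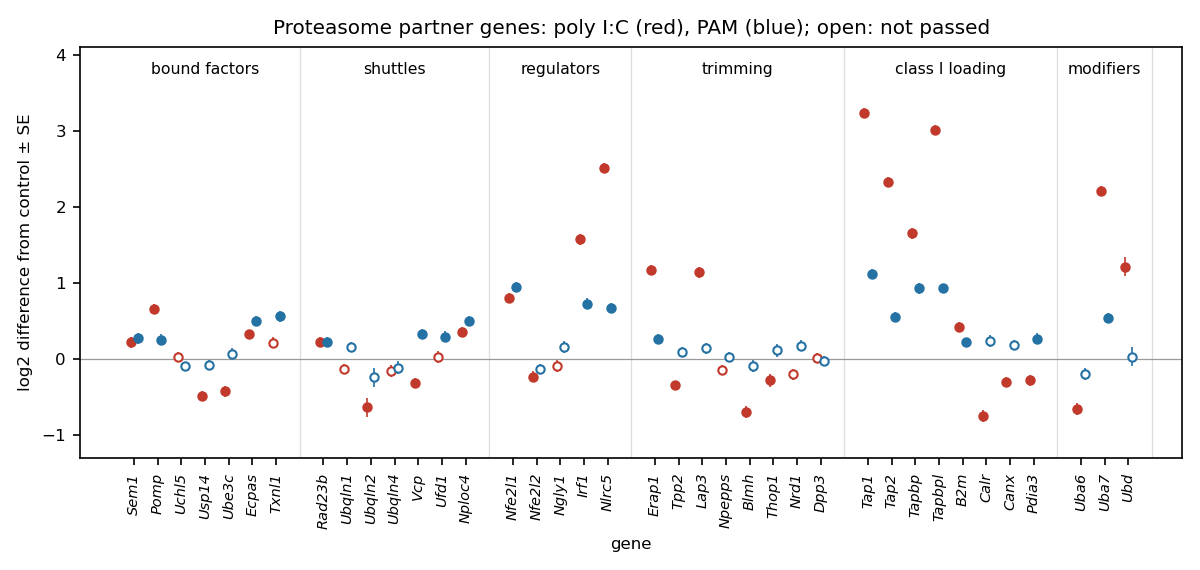
Log2 difference from control ± SE of genes that work with the proteasome, by list, with poly I:C in red and PAM in blue (n = 2 arrays per group; open symbols did not pass limma at an adjusted p of 0.05). Tap1 is highest, at 3.24 with poly I:C, and the red and blue symbols of Nfe2l1 lie close together, at 0.81 and 0.95.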

How the data were processed

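Biotinylated cRNA was hybridised to Affymetrix arrays, per the labels' protocols. The authors deposited a table of 28815 probes on 6 arrays as log values, taken here as log2; for summarization, background correction and normalization the method is not given in the sources used here. Each probe's median had been subtracted (largest probe median left 5e-07; array medians -0.0049 to 0.0072).

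Of the probes, 21780 had a single symbol in the platform annotation, 1605 several and 5430 none; only the first were used, and the probes of a gene were averaged. All 56 member probes were found in the RefSeq gene table under the same symbol. Members and lists were chosen with earlier results of these data known. Named with values on every array were the catalytic and PA28 genes and the highest and lowest member of each other role; of partner lists, up to 3 that passed with the largest differences. Nfe2l2 was added after its value was seen.

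One mean per group was fitted over all 6 arrays and 19935 genes with limma 3.58.1 (R 4.3.3; lmFit and eBayes without trend, 3 residual and 5.68 prior degrees of freedom), with Benjamini-Hochberg adjustment within each comparison at 0.05. The median SE of a difference was 0.075, and the number of arrays limits the precision. A probe was classed at 8 or above where all differences between arrays were whole multiples of the number step used there; 92.6% of 216 ribosomal protein probes and 2.71% of 1035 olfactory receptor probes were in this class. The fit was tested on simulated data. Alternatives were array centring, robust spread, variance trend, only the 4 arrays compared, the replicate block, each array left out, the level class, a fold minimum of 1.5 and single probes.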

Additional observations from a re-analysis of the deposited data

Results flagged for a closer look

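A probe that the annotation gives to both Psme2 and its copy Psme2b was left out of the report's comparisons, and it carried a signal above control. Its arrays stood at -1.11 and -0.96 in control cells, 1.10 and 1.19 with poly I:C and 0.12 and -0.12 with PAM, so the 3 groups did not overlap. It was 2.18 higher with poly I:C and 1.03 higher with PAM than in control cells, beside 2.00 and 1.23 for the probe of Psme2 alone.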

How the results depend on the processing

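Of the values of single members under an alternative, 1704 kept their side of the threshold, 89 lost the call and 19 gained it. Direction turned in 31 of these values, of 18 members (Psmb11 with poly I:C, for example, went from 0.03 to -0.09 without control replicate 2), and in none of them did the value pass before or after. Counting each member once, 6 lost a call at least once with poly I:C, 14 with PAM and 8 between the ligands. Requiring 1.5-fold left 12 members higher and 0 lower with poly I:C, 9 and 0 with PAM, and 6 and 0 for poly I:C against PAM. Here too no share of all genes at that minimum stands beside the counts. Among genes at 8 or above, fitted alone, 2 members were lower with poly I:C (Psmg1 and Psmg2) and 1 with PAM. Between the ligands that fit gave 17 members higher with poly I:C and 9 higher with PAM, beside 12 and 9 in the main fit. Differences are the same in both fits, but adjusted p are not: for Psma2 it was 0.047 there and 0.144 in the main fit (limma). The share of other genes passing in that fit was not set beside these counts.

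Leaving out 1 array at a time gave 31 to 34 members higher and 1 to 2 lower with poly I:C, 28 to 35 higher and 0 to 2 lower with PAM, and 9 to 13 higher and 5 to 9 lower for poly I:C against PAM. The lower counts were 2 with poly I:C without control replicate 1, 0 with PAM without PAM replicate 1, 1 with PAM without control replicate 2 or PAM replicate 2, and 5 between the ligands without PAM replicate 1. The members' median ranged from 0.36 to 0.39 with poly I:C, 0.33 to 0.35 with PAM and 0.044 to 0.069 between the ligands, where poly I:C replicate 2 left out gave the last. The immunoproteasome median ranged from 0.73 to 0.96 with PAM and from 1.45 to 1.68 between the ligands. The core median ranged from 0.52 to 0.55 with poly I:C, 0.42 to 0.46 with PAM and 0.097 to 0.12 between the ligands, and the cap median from 0.27 to 0.34 with poly I:C and 0.35 to 0.39 with PAM. Between the ligands the cap median, -0.0087 with all arrays, ranged from -0.041 to 0.019 and turned direction without poly I:C replicate 2 (0.019); the cause was not tested. The shift of the immunoproteasome set against the core ranged from 0.24 to 0.37 with PAM and from 1.34 to 1.47 between the ligands. With Psma8 added to the core, an alternative chosen after seeing the data, it was 1.78 with poly I:C and 0.37 with PAM.

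Whether same-numbered arrays share a mouse, culture or batch is not stated. The correlations of their deviations were -0.073, 0.155 and -0.01, which cannot decide whether they were paired. With the replicate block poly I:C gave 35 members higher and 1 lower, PAM 35 and 2, and the ligands against each other 12 and 8; Psmb1, Psmc3ip and Psmd13 lost the PAM call and Psmc1 that between the ligands. The number of arrays limits what differences could pass, and probe levels over background are unknown.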

Other observations

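Genes next to the immunoproteasome genes in the RefSeq order of protein-coding genes (GRCm38.p6) were read after the members' values were seen. On chromosome 17, Psmb9, Tap1, Psmb8 and Tap2 follow each other, and all 4 rose with both ligands. On chromosome 14, Emc9, a subunit of a membrane protein insertion complex, lies between Psme1 and Psme2 and fell, by -0.99 ± 0.10 with poly I:C and -0.63 ± 0.10 with PAM (n = 2 arrays per group, limma). Rnf31, a subunit of the linear ubiquitin ligase on the other side of Psme2, rose with poly I:C by 1.87 ± 0.07. Its difference with PAM, 0.11 ± 0.07, did not pass, and the ligands differed by 1.77 ± 0.07 (adjusted p = 9.36e-08, limma). Fitm1, before Psme1, did not pass in either comparison (-0.09 and -0.27). Beside Psmb10 on chromosome 8, Ctrl, a chymotrypsin-like protease gene, rose with poly I:C by 0.61 ± 0.08, and Lcat, on the other side, differed by 0.0039 without passing.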
